A study of Mus musculus with 81 samples.

Results

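The 8 genes Cd274, Pdcd1lg2, Cd80, Cd86, Cd40, Icosl, Cd47 and Sirpa encode the surface proteins through which a macrophage stimulates or restrains a T cell, or restrains another phagocyte. They were chosen by symbol and not by a rule on measured values, though earlier results of these data were known. They are 8 of the 54079 genes listed in every library. Their transcript counts were followed in 79 of 81 libraries from bone marrow-derived macrophages (BMDMs), their progenitors and peritoneal macrophages. The remaining 2 libraries could not be placed in a group and entered no comparison.

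A T cell that meets its antigen needs a costimulatory signal, and whether it receives one depends on these ligands. CD80 and CD86, of the B7 family, bind CD28 to stimulate and CTLA-4 to restrain, while ICOSL binds ICOS on activated T cells. PD-L1, encoded by Cd274, and PD-L2, encoded by Pdcd1lg2, bind PD-1 and restrain. CD40, a receptor of the TNF receptor family, is bound by CD40 ligand on helper T cells and signals through TRAF proteins and NF-κB. CD47 is carried by most cells and binds SIRPα, encoded by Sirpa, on macrophages, where SIRPα recruits phosphatases that restrain phagocytosis. Interferon-γ (IFNγ) acts on macrophages through the kinases JAK1 and JAK2 and the factor IRF1, and type I interferon through the receptor IFNAR1 and a complex that holds STAT2 and IRF9. Cd274, Cd40 and Cd86 are known to be induced by IFNγ in macrophages.

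The comparisons asked how these genes stand in macrophages without histone H3.3, which is encoded by H3f3a and H3f3b. WT mice carried floxed copies of both genes (H3f3a fl/fl, H3f3b fl/fl) without Cre, and cKO mice carried the same alleles with LysM cre/cre. This Cre is knocked into Lyz2, is active in macrophages and granulocytes, and disrupts Lyz2, so that cKO cells lost Lyz2 too. Mice of both sexes were 8 to 10 weeks old. Marrow cells were cultured in L929 conditioned medium and taken as progenitors on days 3 and 5 and as BMDMs on day 7. Day 8 BMDMs were left untreated or given IFNγ for 12 h. In the antibody experiment WT and cKO cells received no antibody, an isotype control antibody (IgG1 κ) or the IFNAR1 antibody MAR1-5A3 at 10 µg per mL from the start of culture, and were lysed on day 6. Sting, Mavs and Irf7 double KOs were cKO mice that also carried a germline StingKO, MavsKO or Irf7KO allele, and 3 sets of WT and cKO BMDMs were made beside them. Peritoneal macrophages of WT and cKO mice were isolated with beads. Each of the 27 groups had 3 libraries, labelled as biological replicates, except cKO day 8 without and with IFNγ, which had 2. The p-values measure the spread between these libraries, and in bulk RNA fewer cells of a type cannot be told apart from less RNA per cell.

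In the GRCm38 assembly, Cd274 (ENSMUSG00000016496, chr19:29367455-29388095) and Pdcd1lg2 (ENSMUSG00000016498, chr19:29410919-29471161) are neighbours on the plus strand, 0.0228 Mb apart. On chromosome 16 lie Cd80 (ENSMUSG00000075122, chr16:38455561-38496335, plus strand), Cd86 (ENSMUSG00000022901, chr16:36603869-36666081, minus strand) and Cd47 (ENSMUSG00000055447, chr16:49800533-49915010, plus strand). Cd40 (ENSMUSG00000017652, chr2:165055627-165072948) and Sirpa (ENSMUSG00000037902, chr2:129592835-129632228) are on the plus strand of chromosome 2, and Icosl (ENSMUSG00000000732, chr10:78069302-78083913) is on the plus strand of chromosome 10. Exons of Cd274 share 511 bases with an antisense gene, AC119228.1. The counts ignore strand, so where both were annotated, reads in those bases are ambiguous, and ambiguous reads were left out. Sirpa has close paralogues, and multimapping reads were left out of its count.

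Promoters from RefSeq (GRCm38.p6) were found for 5 of the 8 genes. The 250 bases before the start are shown for the pair of PD-1 ligands, both higher with IFNγ in WT cells, and for Icosl, which did not pass the test with IFNγ and was called in all 3 sets of cKO and WT cells. Capitals mark GAAA, or TTTC on the other strand, the half-site of the element bound by interferon regulatory factors.
Cd274 (chr19:29367188-29367437, plus strand): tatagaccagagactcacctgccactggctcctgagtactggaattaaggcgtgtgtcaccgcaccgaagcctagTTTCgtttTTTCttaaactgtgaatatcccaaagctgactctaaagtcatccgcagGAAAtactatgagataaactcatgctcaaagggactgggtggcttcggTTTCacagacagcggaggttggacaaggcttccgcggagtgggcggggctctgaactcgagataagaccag
Pdcd1lg2 (chr19:29410669-29410918, plus strand): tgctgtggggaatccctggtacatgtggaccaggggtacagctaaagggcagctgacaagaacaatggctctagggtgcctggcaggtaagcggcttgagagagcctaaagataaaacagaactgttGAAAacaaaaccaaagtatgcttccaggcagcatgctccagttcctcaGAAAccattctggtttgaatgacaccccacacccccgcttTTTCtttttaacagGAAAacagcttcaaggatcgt
Icosl (chr10:78069118-78069367, plus strand): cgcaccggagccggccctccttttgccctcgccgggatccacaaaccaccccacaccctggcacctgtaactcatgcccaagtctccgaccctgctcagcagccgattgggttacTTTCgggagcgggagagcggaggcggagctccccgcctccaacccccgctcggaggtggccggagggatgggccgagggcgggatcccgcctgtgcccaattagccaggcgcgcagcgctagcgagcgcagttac
The Cd274 and Pdcd1lg2 windows hold 4 half-sites each and the Icosl window holds 1. The median over all promoters is 2, and 28.9% of promoters hold 4 or more while 86.4% hold 1 or more. No promoter of these 5 genes, read with 50 further bases after the start, holds GAAA, any 2 bases and GAAA (an interferon-stimulated response element) or GGG, any 2 bases and TTTCC (an NF-κB element) on either strand. Among all 32851 promoters of this length, 3.44% hold the first and 1.63% the second. These matches describe letters in the window only.

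Total gene counts per library, in units of 1e+06 counts (M), were 14.4 to 20.2 M in the time course, 3.61 to 9.88 M on day 8, 7.63 to 23.4 M in peritoneal macrophages, 5.30 to 34.4 M in the antibody experiment and 21.5 to 45.6 M in the double KO experiment. The smallest library, cKO with IFNγ replicate 1, stood apart: 57.1% of its reads were unmapped, against at most 18.3% in any other library, and its TMM scaling factor was 0.46, against 0.80 to 1.25 elsewhere. It is one of the pair of libraries behind every result for cKO cells with IFNγ. H3f3a stood at 33.6 to 93.8 CPM, read counts scaled to a library total of 1e+06, in the WT libraries and 1.21 to 15.3 in the cKO and double KO libraries. H3f3b in the antibody experiment stood at 16.7 to 67.8 CPM in cKO against 295 to 468 in WT, while elsewhere its cKO and WT ranges overlapped. Lyz2 stood at 1.69 to 81.9 CPM in cKO libraries and at least 4465 in WT libraries. Tmem173, the STING gene, was at 5.01 to 6.10 CPM in the Sting double KO against 68.2 or more in the cKO sets, and Irf7 at 98.3 to 112 CPM in the Irf7 double KO against 249 or more in the cKO sets. Mavs stood at 37.2 to 37.9 CPM in the libraries labelled Mavs double KO, inside the 36 to 51.6 of the cKO sets, so that the count does not check that label. The 7 macrophage markers summed to 2544 CPM or more in every BMDM library, and the 4 peritoneal macrophage markers to at least 18545 CPM in peritoneal libraries and at most 25.9 elsewhere.

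Sirpa was the most abundant of the 8 transcripts per kilobase of exon in 25 of the 27 groups, and Pdcd1lg2 the least abundant in every group. In WT day 3 cells the group mean of Sirpa was 275 CPM per kb, followed by Cd47 at 38.8, Cd274 at 8.46, Icosl at 5.34, Cd80 at 4.59, Cd40 at 2.19 and Cd86 at 2.05. The order of Sirpa and Cd47 above the others stands clear of the spread between libraries, whereas the neighbours Cd274, Icosl and Cd80, and Cd40 and Cd86, overlapped in their libraries on that scale. Pdcd1lg2 was nearly silent, with at most 0.377 CPM in any library without IFNγ, and passed the filter on low counts only in the day 8 experiment.

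Peritoneal macrophages had another profile. Per kilobase, the WT means were 73.8 for Sirpa, 46.4 for Cd47, 39.2 for Cd86, 13.7 for Cd40 and 2.11 for Cd274. Cd86 in WT peritoneal libraries stood at 141, 173 and 117 CPM, above 6.21, 18.8 and 7.91 CPM in WT day 7 BMDMs, and Cd40 stood at 60.02, 46.98 and 33.1 against 13.98, 5.88 and 8.17 CPM. The peritoneal libraries were made with another kit (SMART-Seq v4), so tissue and kit cannot be told apart and these levels were not tested against each other. The antibody experiment also differed from the other BMDMs: Cd80 was at 22.3 to 78.7 CPM in its 18 libraries and at most 19.99 in every other library grown from marrow. Cd86 stood there at 23.9 to 98.1 CPM and Cd274 at 57.3 to 533. Their highest values were 24.8 and 65.7 CPM in the time course, and 22.8 and 41.0 in the double KO experiment. What differs between the experiments was not tested.

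**Figure D1:**
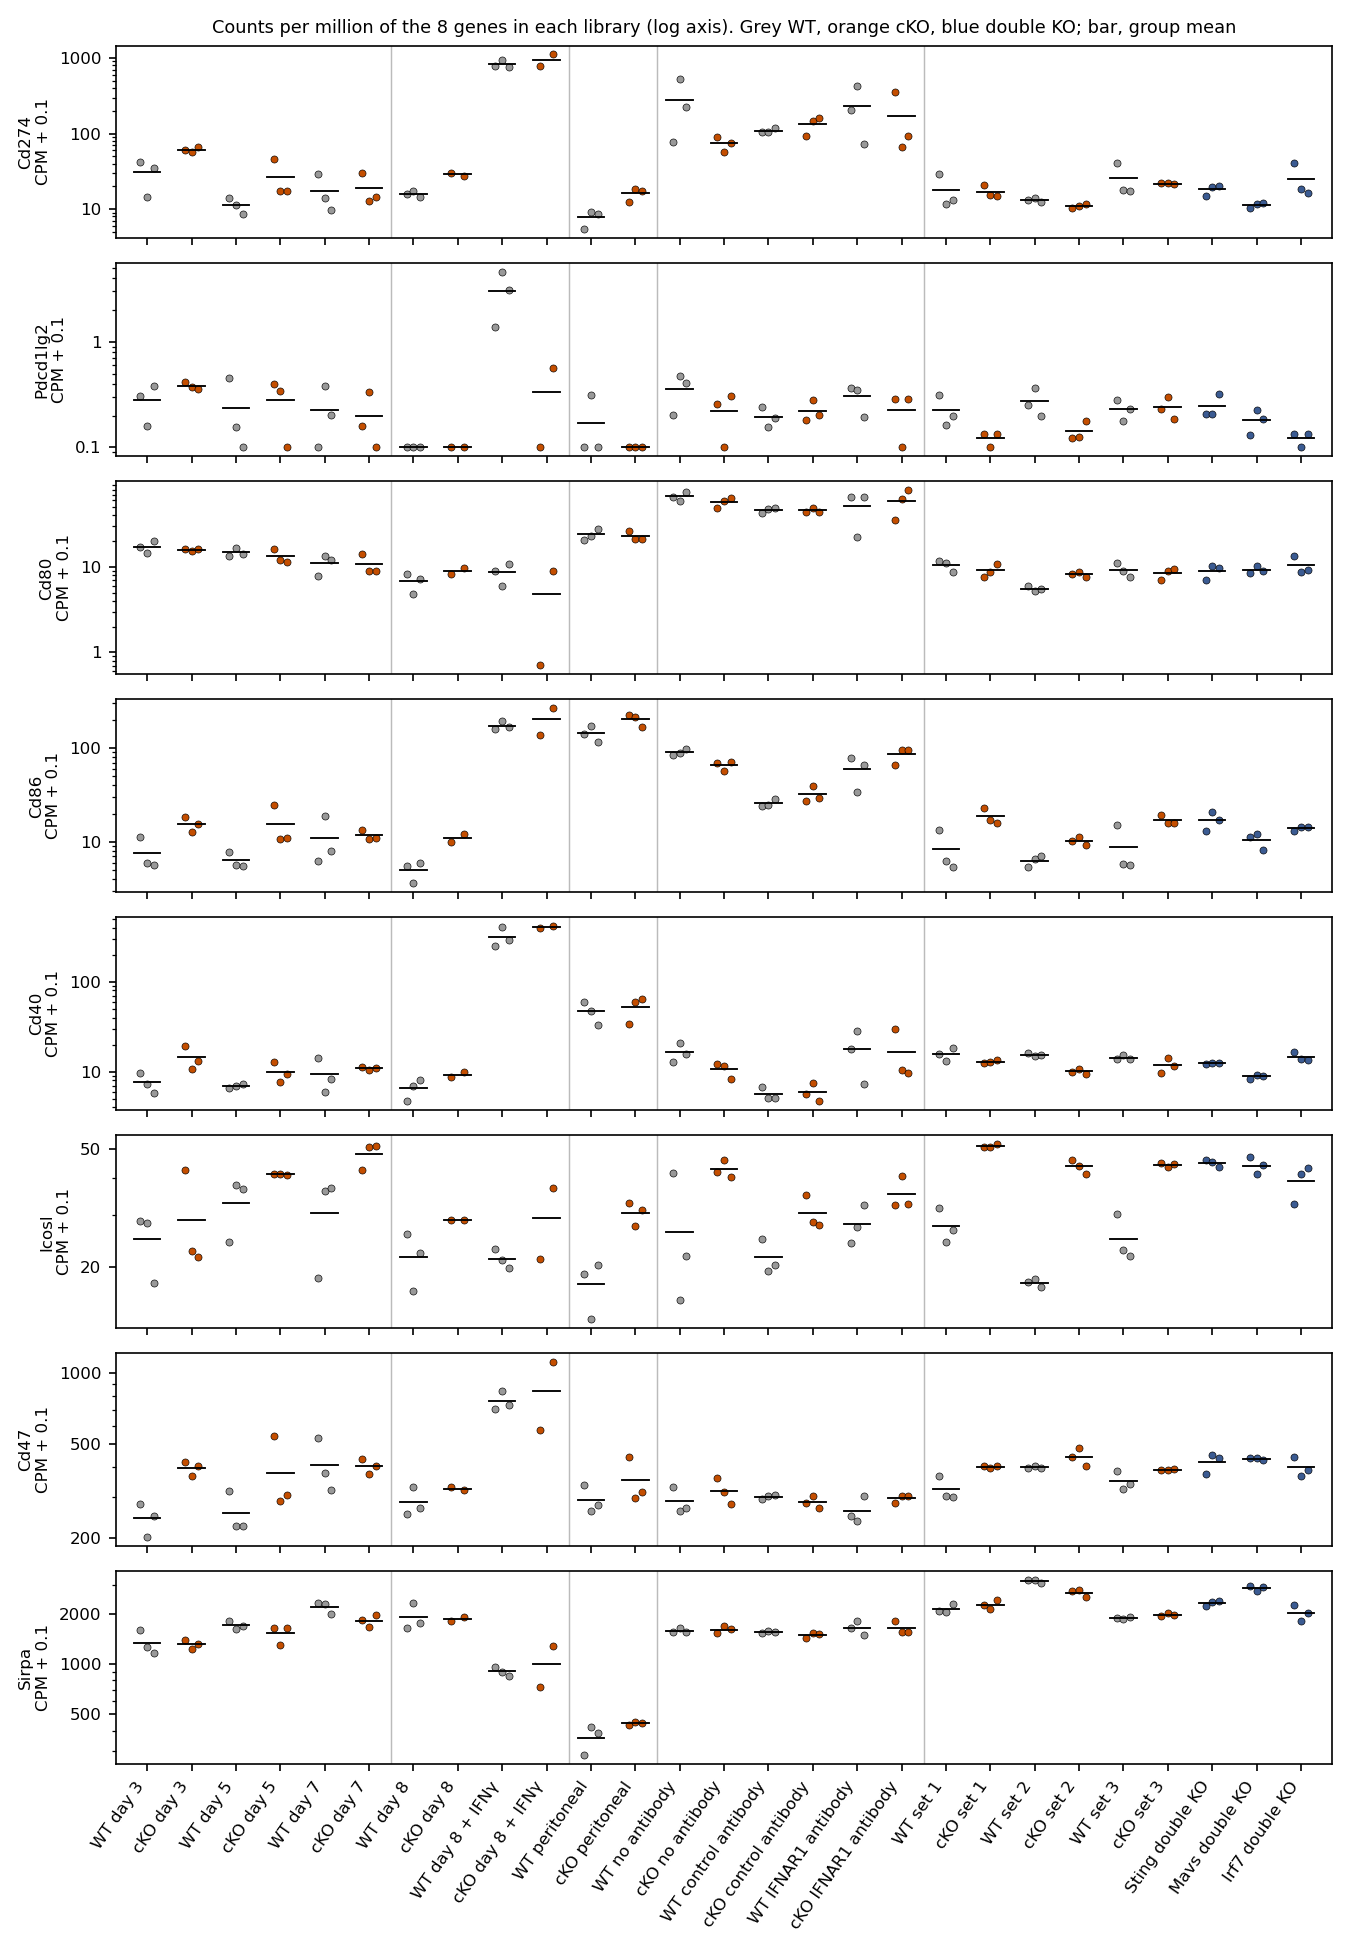
Each panel plots 1 gene, with its CPM plus 0.1 on a log axis, and each point is 1 library of the group named on the horizontal axis (bars are group means). Sirpa has the highest group means in CPM and Pdcd1lg2 sits near the floor, and the day 8 groups with IFNγ stand far above the untreated day 8 groups for Cd274, Cd86 and Cd40.

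IFNγ gave the largest differences in these genes among the 29 comparisons. In WT day 8 BMDMs 4 of the 7 members other than Pdcd1lg2 rose, 1 fell and 2 did not pass the test, against a background of 38.9% of all genes called. The median log2 fold change of the 7 was 1.42, beside −0.01 over all genes tested. Fold changes throughout are edgeR log2 values ± SE, and a gene was called at a Benjamini-Hochberg adjusted p under 0.05 over all genes.

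Cd274 stood at 15.8, 17.3 and 14.5 CPM in untreated WT libraries and at 778, 951 and 759 CPM with IFNγ. This is a 52.2-fold rise (log2 fold change 5.71 ± 0.20, adjusted p = 1.97e-07). Per kilobase, Cd274 went from 4.38 to 229 CPM per kb and passed Sirpa, which stood at 184 with IFNγ. Cd40 went from 4.61, 6.90 and 7.88 to 251, 409.9 and 289 CPM, 48.8-fold (5.61 ± 0.27, adjusted p = 6.07e-07). Cd86 went from 5.49, 3.51 and 5.87 to 159, 196 and 166 CPM, 34.9-fold (5.13 ± 0.30, adjusted p = 1.62e-06). In these genes every IFNγ library lay above every untreated one.

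Pdcd1lg2, the PD-L2 gene, had no count in the 3 untreated WT libraries and 1.29, 4.46 and 3.01 CPM with IFNγ. It was at least 29.2-fold higher, taking 3 counts over the untreated group as the limit that a count of 0 allows. It passed the filter on low counts through this IFNγ group alone, so no test of it is given. Per kilobase its level was still the lowest of the 8. Cd47 rose from 253, 331 and 269.6 to 704, 844 and 734 CPM (1.42 ± 0.23, adjusted p = 0.000859). Its receptor gene Sirpa fell from 1659, 2333 and 1769 to 961, 899 and 854 CPM (-1.09 ± 0.22, adjusted p = 0.00367). Thus the ligand and the receptor of this pair moved in opposite directions, with no overlap between treated and untreated libraries.

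Cd80 and Icosl, the other B7 ligands, did not pass the test. Cd80 stood at 8.23, 4.78 and 7.09 CPM untreated and 8.90, 5.95 and 10.7 with IFNγ (0.35 ± 0.49, adjusted p = 0.614). Icosl stood at 25.7, 16.5 and 22.1 and 22.8, 20.99 and 19.6 CPM (-0.02 ± 0.22, adjusted p = 0.959). The treated and untreated libraries of both overlapped.

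In cKO day 8 BMDMs, with 2 libraries a group, 4 of the same 7 rose with IFNγ, 1 fell and 2 did not pass the test, against a background of 33.9%. Their median log2 fold change was 1.38, beside −0.02 over all genes. Cd274 went from 30.2 and 27.5 to 781 and 1122 CPM (5.04 ± 0.24, adjusted p = 3.71e-06). Cd40 went from 8.52 and 9.68 to 392 and 415 (5.47 ± 0.32, adjusted p = 5.68e-06). Cd86 went from 9.90 and 12.1 to 138 and 266 (4.20 ± 0.35, adjusted p = 2.72e-05). As in WT cells, Cd47 rose, from 331 and 319 to 575 and 1114 CPM (1.38 ± 0.28, adjusted p = 0.00416), and Sirpa fell, from 1816 and 1917 to 727 and 1289.9 CPM (-0.89 ± 0.27, adjusted p = 0.0306). The Sirpa call was lost under 5 of 10 alternatives. Without the poorly mapped replicate 1 the log2 fold changes were 5.31 for Cd274, 5.54 for Cd40, 4.62 for Cd86 and 1.81 for Cd47, all called, and -0.51 for Sirpa (adjusted p = 0.0579), with the lone remaining library taken to vary like the other groups. Cd80 gave -0.66 ± 0.62, adjusted p = 0.44 and Icosl 0.04 ± 0.27, adjusted p = 0.927 with both libraries.

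With IFNγ Pdcd1lg2 stood at 0 and 0.471 CPM in cKO, 4 counts in all, below each of the WT libraries. The poorly mapped replicate 1 of cKO, with 3.61 M counts, held none of those reads, and Cd80 was 0.604 CPM in it and 8.83 in the other cKO library.

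No member was called in a test of whether the IFNγ effect differed between cKO and WT, where 0% of all genes was called by edgeR. Of the 7 members other than Pdcd1lg2, 2 had an unadjusted p under 0.05, and DESeq2 called 0. Among all 13075 genes tested, 1206 had such a p by edgeR. The differences for Cd274 (-0.66 ± 0.26, adjusted p = 0.529) and Cd86 (-0.93 ± 0.40, adjusted p = 0.535) were negative. Without cKO IFNγ replicate 2 the fit called 3 members, Cd274 (−0.98), Cd86 (−1.50) and Cd80 (−4.23), and 3347 genes in all. That arm then held the poorly mapped library alone, taken to vary like the other groups, so these calls are no result about the members. Without replicate 1 it called 33 genes.

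**Figure D2:**
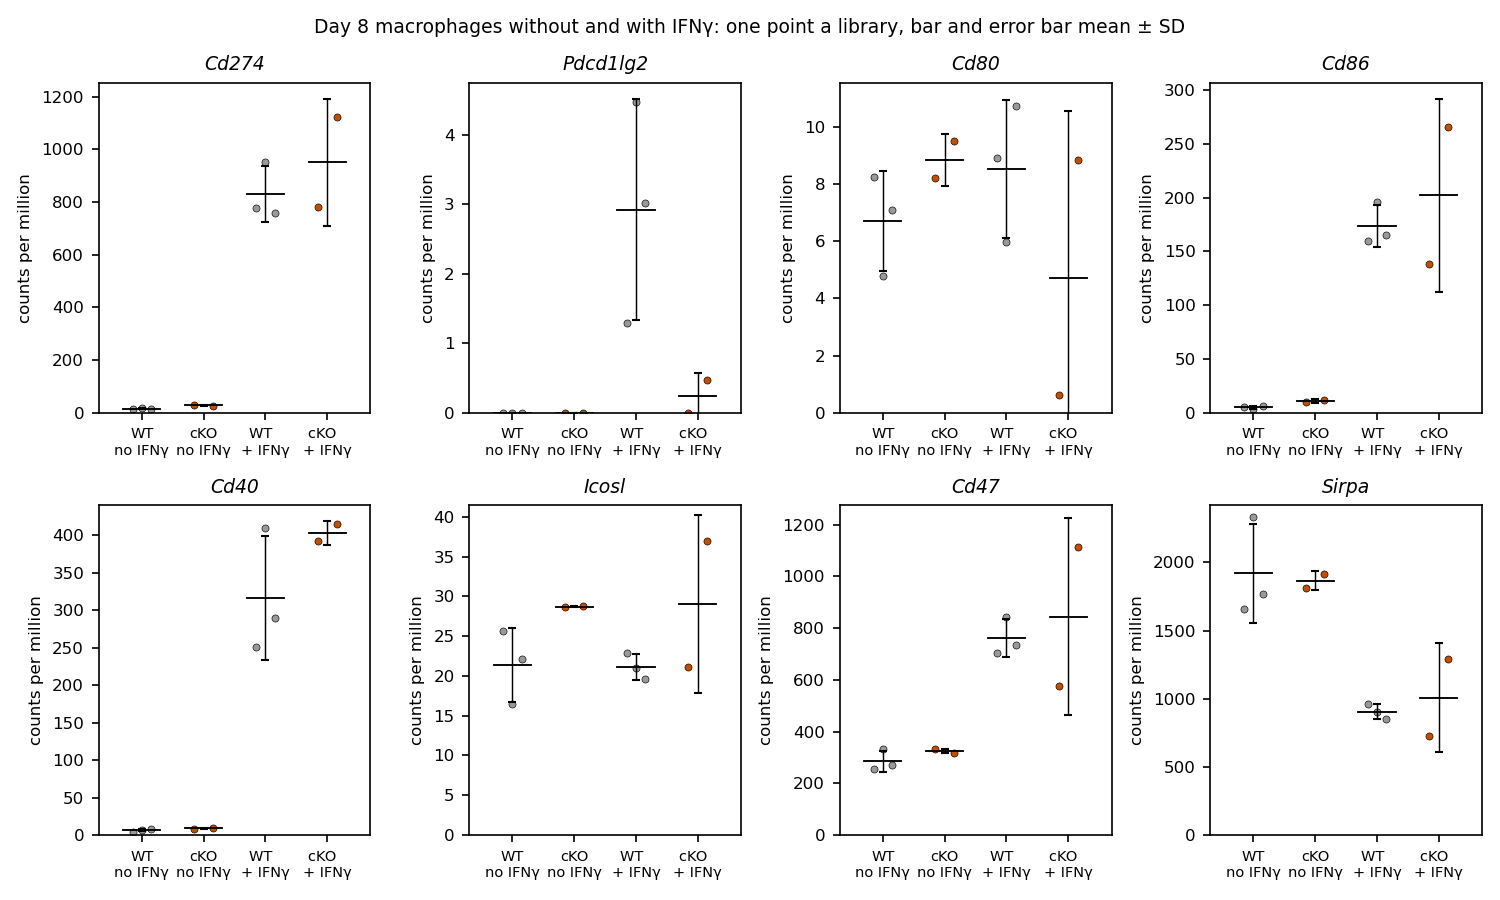
CPM of the 8 genes in day 8 BMDMs without and with IFNγ, 1 point a library, with bars for the mean ± SD (3 WT and 2 cKO libraries a group). Cd274, Cd86, Cd40 and Cd47 are higher and Sirpa lower in every IFNγ library of both genotypes.

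The partners of these genes moved with IFNγ as well. All 7 genes of antigen presentation to CD4 T cells rose in WT cells (median log2 fold change 3.0) and in cKO cells (median 3.51), led by Ciita, the master regulator of MHC class II, at 5.99 in WT. Of 11 genes of interferon signalling, 7 rose and 1 fell in WT cells and 6 rose and 1 fell in cKO cells. Irf1 reached 4.98 in WT. Of 11 genes of CD40 and NF-κB signalling, 6 rose in WT, with Traf1, an adaptor of CD40 and related receptors, at 2.64. Of 11 other B7 family and checkpoint genes that passed the filter, out of 15, 4 rose and 2 fell in WT. H2-T23, which encodes the ligand Qa-1 of the receptor NKG2A, rose by 3.26, Tnfrsf14 by 2.40 and Nectin2 by 1.76 on the log2 scale, and Cd276, which encodes B7-H3, changed by -2.78. In the CD47-SIRPα pathway Ptpn6, the gene of the phosphatase SHP-1, rose by 1.45, while Lrp1, a phagocytic receptor for calreticulin, changed by -1.77. The dendritic cell markers also moved: 3 of 4 tested of the 8 rose in WT, and their sum went from 1.06 to 1.87 to 51.8 to 77.4 CPM, mostly through Clec9a, with Siglech at 0 in both groups. In cKO it went from 1.66 to 2.60 to 25.4 to 37.8 CPM. Their part in the result was not tested.

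Between cKO and WT, 9 of 84 values of the 7 members other than Pdcd1lg2 were called over the 12 comparisons, a share near the 11.6% of values called over all genes. In the time course none was called on day 3 (background 8.65%), day 5 (3.12%) or day 7 (1.82%). By edgeR 4 of the 7 tested members had an unadjusted p under 0.05 on day 3, 3 on day 5 and 1 on day 7. Over all 15955 genes tested, 3561, 2241 and 2653 had such a p on these days. DESeq2 called 1 member on day 3, 1 on day 5 and 0 on day 7. Here and elsewhere the backgrounds are those of edgeR. The share of all genes called by DESeq2 is not given, so its counts are no result about the members.

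On day 3, 4 members lay higher in every cKO library than in every WT library. How many of all genes did so was not counted, so the number itself is no result about the members. Cd274 was at 61.3, 56.2 and 65.7 CPM in cKO and 42.3, 14.4 and 35.2 in WT (1.0 ± 0.47, adjusted p = 0.223). Cd86 was at 18.4, 12.7 and 15.3 and 11.1, 5.81 and 5.56 (1.06 ± 0.40, adjusted p = 0.122). Cd40 was at 19.4, 10.5 and 13.2 and 9.48, 7.27 and 5.67 (0.95 ± 0.29, adjusted p = 0.0544). For Cd47 the values were 419, 367 and 405 in cKO and 279.7, 201 and 249 in WT (0.71 ± 0.23, adjusted p = 0.0739). Deviations of same-numbered libraries correlated at 0.45, 0.29 and 0.106 on this day, and 1 of the 3 matched its own number best. With the replicate number as a block over the whole time course, 3 of these members passed. They were Cd40 (log2 fold change 0.92, adjusted p = 0.0133), Cd47 (0.72, adjusted p = 0.00695) and Cd274 (1.11, adjusted p = 0.0348). Numbers that pair this weakly leave these block results uncertain. Icosl, Cd80 and Sirpa had overlapping libraries, with log2 fold changes of 0.22, -0.10 and -0.03.

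The median of the 7 tested members on day 3 was 0.71, beside 0.04 over all genes. Of 11 interferon signalling genes 5 rose and 1 fell on that day, with Stat2 at 2.83 and Irf9 at 1.75. Of 5 tested TNF family ligands 2 rose, Tnfsf15 at 3.37 and Tnfsf8, the CD30 ligand, at 2.98. H2-T23 and Lgals9, the galectin-9 gene, rose by 2.76 and 1.61 on the log2 scale among the other checkpoint ligands. Markers of other cells stood higher too. All 5 B cell markers were called, with sums of 24.9 to 52.9 CPM in cKO and 11.6 to 12.7 in WT, and 2 of 6 tested dendritic cell markers, with sums of 12.5 to 15.97 and 3.82 to 8.62 CPM and Cd209a at 0 in cKO. B cells and dendritic cells are known to express Cd86 and Cd40. Their part in the result was not tested.

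On day 5 Cd274 stood at 46.01, 17.02 and 17.46 CPM in cKO and 14.1, 11.1 and 8.51 in WT (1.25 ± 0.49, adjusted p = 0.228), and Cd86 at 24.8, 10.7 and 10.9 and 7.64, 5.58 and 5.47 (1.31 ± 0.40, adjusted p = 0.106). Replicate 1 of cKO was the high library in both. Cd40 (0.52) and Icosl (0.33) also lay higher in every cKO library, and Cd47 (0.56), Cd80 (-0.16) and Sirpa (-0.16) overlapped, none of the 5 passing the test. Its sum of neutrophil and progenitor markers was the largest of the day 5 libraries, the group sums being 428 to 1425.5 CPM in cKO and 369.8 to 449 in WT, with 4 of 9 called. On day 7 Icosl stood at 42.3, 50.7 and 51.03 CPM in cKO and 18.3, 36.03 and 36.8 in WT (0.66 ± 0.28, adjusted p = 0.251), with no overlap. Sirpa lay lower in every cKO library (-0.28 ± 0.16, adjusted p = 0.391). The other 5 tested members overlapped, with log2 fold changes from -0.04 for Cd80 to 0.19 for Cd40. The stromal markers summed to 67.6 to 95.4 CPM in cKO and 13.2 to 42.3 in WT on day 5, and to 86.4 to 125 and 4.38 to 40.5 on day 7, with none of 3 tested called on either day. Their part in the results was not tested.

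Between day 3 and day 7, as progenitors became macrophages, 3 of 7 tested members were called in WT cells (background 24.5%). Sirpa rose from 1604, 1274 and 1167 to 2313, 2303 and 2001 CPM (0.71 ± 0.16, adjusted p = 0.00521), and Cd47 from 279.7, 201 and 249 to 534, 377 and 321 (0.75 ± 0.23, adjusted p = 0.0292), the Cd47 call being lost under 4 of 11 alternatives. Cd80 fell from 16.8, 14.3 and 19.99 to 7.67, 13.2 and 11.9 (-0.64 ± 0.22, adjusted p = 0.0434), and this call was lost in most alternatives. In cKO cells 1 was called (background 14.7%): Cd274 fell from 61.3, 56.2 and 65.7 to 30.3, 12.8 and 14.3 CPM (-1.67 ± 0.48, adjusted p = 0.0277), a call lost when any 1 of 5 of its 6 libraries was left out. Sirpa in cKO cells stood at 1406, 1229 and 1322 on day 3 and 1833, 1662 and 1960.3 on day 7 (0.46 ± 0.16, adjusted p = 0.0586), and with the replicate block it passed as well (adjusted p = 0.0317), giving 2 called. Over the same interval all 9 neutrophil and progenitor markers fell in both genotypes. No member was called in the test of whether the cKO effect changed between the days (background 0.0439%), 1 having an unadjusted p under 0.05 by edgeR and DESeq2 calling 0. Cd47 gave -0.73 ± 0.33, adjusted p = 0.305 there. In that test 2491 of all 15955 genes had an unadjusted p under 0.05.

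In untreated day 8 BMDMs no member was called between cKO and WT (background 0.658%), with 2 at an unadjusted p under 0.05 by edgeR and 2 called by DESeq2. Of all 13075 genes tested, 793 had such a p. Cd274 was at 30.2 and 27.5 CPM in cKO and 15.8, 17.3 and 14.5 in WT (0.86 ± 0.19, adjusted p = 0.096), and Cd86 at 9.90 and 12.1 and 5.49, 3.51 and 5.87 (1.15 ± 0.29, adjusted p = 0.179). Both had no overlap between genotypes. Cd40 (0.49) and Icosl (0.42) were likewise apart, whereas Cd80 (0.40), Cd47 (0.19) and Sirpa (-0.04) overlapped. With IFNγ no member was called between cKO and WT (background 5.48%), with none of the 7 members other than Pdcd1lg2 at an unadjusted p under 0.05 and 0 called by DESeq2. The libraries of all 7 overlapped, with log2 fold changes from -0.61 for Cd80 to 0.48 for Icosl. An unadjusted p under 0.05 was found in 3434 of all 13075 genes. Without the poorly mapped replicate 1, when the cKO arm is 1 library taken to vary like the other groups, 2 members passed, Icosl at 0.83 (adjusted p = 0.0315) and Cd47 at 0.58, while the genes called went from 717 to 1351. The stromal markers summed to 54.6 to 349 CPM in cKO and 8.36 to 49.6 in WT with IFNγ, with none of 5 called, and their part was not tested.

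Peritoneal macrophages had no member called either (background 1.06%), with 3 at an unadjusted p under 0.05 by edgeR and 2 called by DESeq2. Among all 12361 genes tested, 1189 had such a p. Cd274 stood at 12.2, 18.6 and 17.3 CPM in cKO and 5.28, 9.15 and 8.52 in WT (1.04 ± 0.27, adjusted p = 0.17). Icosl stood at 32.7, 27.4 and 30.9 and 18.8, 13.1 and 20.1 (0.81 ± 0.21, adjusted p = 0.168). Cd86 overlapped, at 225, 215 and 166 and 141, 173 and 117 (0.49 ± 0.19, adjusted p = 0.438). Sirpa lay higher in every cKO library (0.29 ± 0.17, adjusted p = 0.702), and Cd47 (0.27), Cd40 (0.17) and Cd80 (-0.06) overlapped. Thus Cd274, Icosl and Sirpa had their 3 cKO libraries above their 3 WT libraries in cells not grown in culture. The amounts did not pass the test, and the share of all genes apart in this way was not counted.

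**Figure D3:**
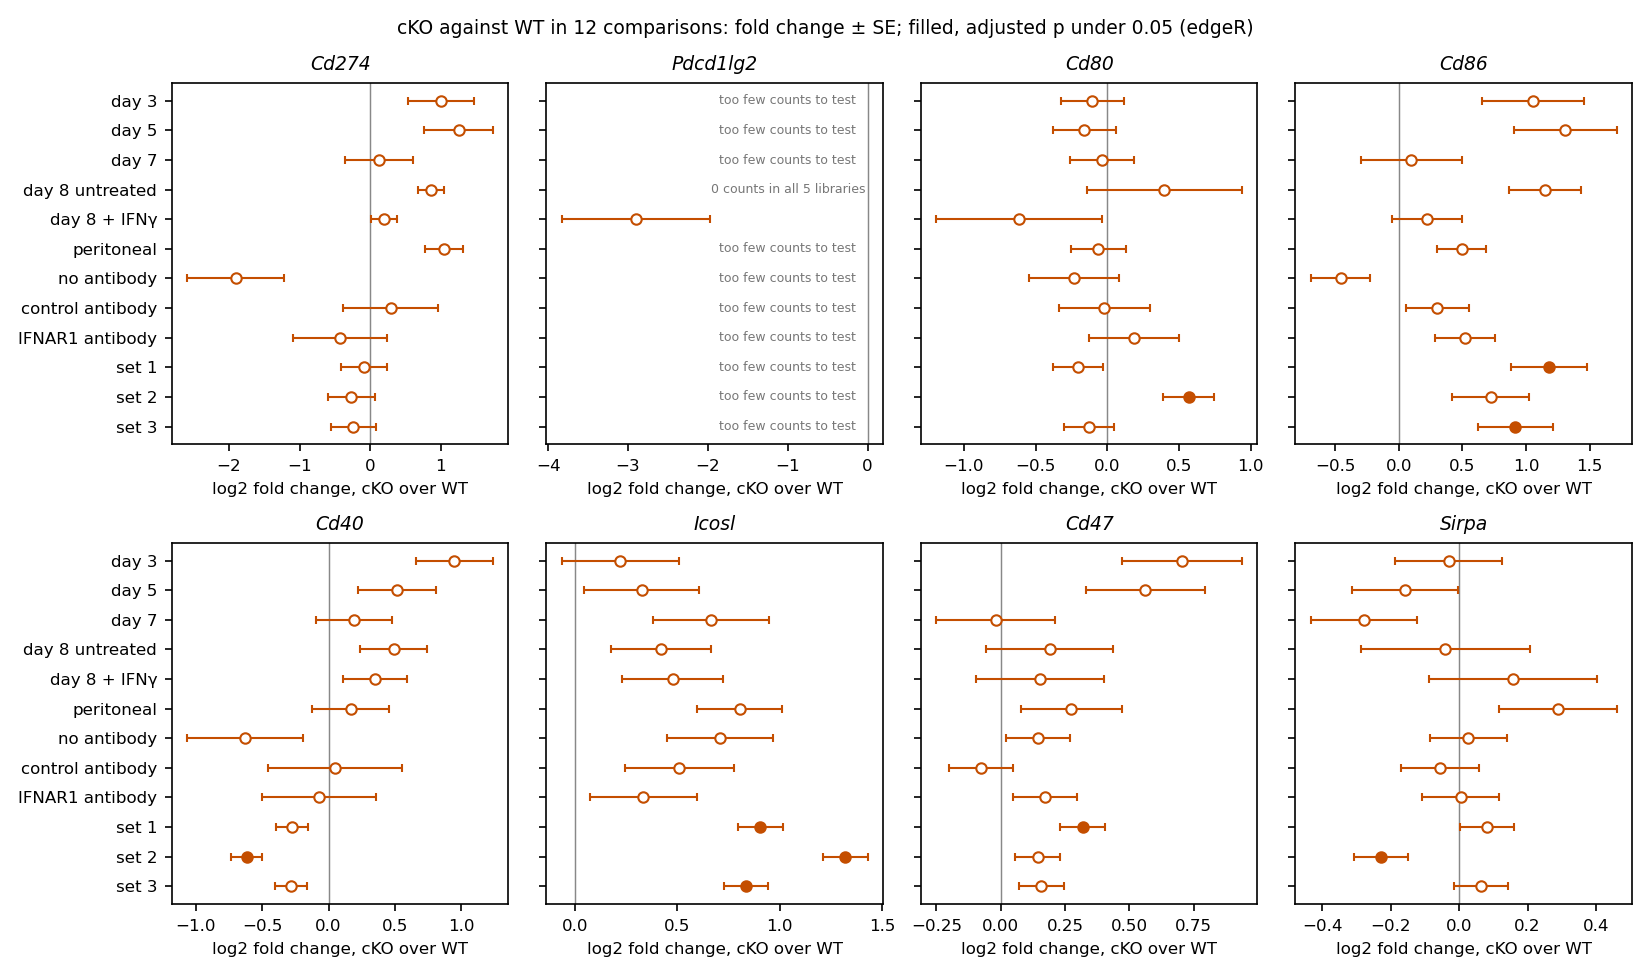
Log2 fold change of cKO over WT ± SE for each gene (panels) in the 12 comparisons of the genotypes (rows), filled where the adjusted p was under 0.05. Icosl lies above 0 in all 12 rows, while Cd80, Cd40 and Sirpa scatter around 0.

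The antibody experiment gave the arms side by side. Between cKO and WT no member was called without antibody (background 8.16%), with control antibody (5.11%) or with IFNAR1 antibody (0.698%). By edgeR 2, 0 and 1 members had an unadjusted p under 0.05 in these arms, and DESeq2 called 0 in each. Such a p was found in 4808, 2757 and 2067 of all 17191 genes. Without antibody Cd274 stood at 88.9, 57.3 and 75.5 CPM in cKO and 76.7, 533 and 222 in WT (-1.91 ± 0.69, adjusted p = 0.0927). The lowest of the WT libraries lay inside the cKO range and the highest far above it. Cd86 (-0.46) and Cd40 (-0.63) lay lower in every cKO library of this arm. With control antibody Icosl lay higher (0.51) and Sirpa lower (-0.06) in every cKO library, and the other members, and all with IFNAR1 antibody, overlapped. In the arm without antibody, leaving out WT replicate 1 gave 2 called members, Cd274 at −2.35 (adjusted p = 0.025) and Icosl at 1.21 (adjusted p = 0.00148). Leaving out 1 library at a time moved all genes called in this arm between 442 and 3377, against 1403 with all libraries. These 2 calls are thus no result about the members alone.

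Cd86 and Cd40 moved with the antibodies. Against control antibody, IFNAR1 antibody gave 2 called members in WT (background 11.2%) and 1 in cKO (4.68%). Cd86 was at 23.9, 24.7 and 28.3 CPM with control antibody and 78.99, 33.9 and 65.3 with IFNAR1 antibody in WT (1.22 ± 0.24, adjusted p = 0.00656). In cKO it was at 27.5, 39.2 and 29.04 and 66.2, 94.98 and 94.6 (1.43 ± 0.24, adjusted p = 0.00691). Cd40 was at 6.65, 4.93 and 4.94 and 17.8, 27.98 and 7.17 in WT (1.67 ± 0.46, adjusted p = 0.0327) and at 5.58, 7.41 and 4.56 and 29.4, 10.5 and 9.53 in cKO (1.55 ± 0.48, adjusted p = 0.0773). Within each genotype every IFNAR1 library lay above every control library for both genes, with a wide spread among the IFNAR1 libraries. The Cd40 call in WT was lost under 6 of 11 alternatives, among them leaving out any 1 of its control antibody libraries, and the Cd86 call in WT when only these arms were fitted.

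The control antibody itself differed from no antibody, by 2 called members in WT (background 9.74%) and 1 in cKO (2.09%). Cd86 fell from 84.3, 87.5 and 98.1 to 23.9, 24.7 and 28.3 CPM in WT (-1.81 ± 0.25, adjusted p = 0.00184), and from 68.8, 56.8 and 70.7 to 27.5, 39.2 and 29.04 in cKO (-1.05 ± 0.24, adjusted p = 0.0389). The cKO call was lost when any 1 of its 6 libraries was left out. Cd40 fell from 12.7, 20.7 and 15.7 to 6.65, 4.93 and 4.94 in WT (-1.57 ± 0.46, adjusted p = 0.0437), a call lost when any 1 of 5 of its 6 libraries was left out. In cKO it stood at 12, 11.53 and 8.27 and 5.58, 7.41 and 4.56 (-0.90 ± 0.48, adjusted p = 0.524). These differences share the control antibody libraries with those against IFNAR1 antibody, so the low libraries for both genes are those with control antibody in each. The stromal markers summed to 157 to 291 CPM in cKO with control antibody, 35.2 to 77.6 without antibody and 41.2 to 84.8 with IFNAR1 antibody, and in WT to 12.5 to 219, 13.1 to 97.2 and 5.40 to 108. None of the 4 tested was called, and their part in the results was not tested. Whether the IFNAR1 effect differed between genotypes was tested, and no member was called (background 0%), with 0 at an unadjusted p under 0.05 by edgeR and 0 called by DESeq2. Of all 17191 genes, 990 had such a p.

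Of 11 interferon signalling genes 1 fell with IFNAR1 antibody in WT, Irf9 at -1.04, and 2 in cKO, Irf9 at -0.98 and Stat2 at -1.18, with none rising and list medians of −0.06 in WT and 0.19 in cKO. Among the TNF family ligands, Tnfsf14, which binds the herpesvirus entry mediator on T cells, rose in WT by 2.56 and in cKO by 1.52 on the log2 scale, and Tnfsf8 in WT by 1.44. Traf1 rose in WT by 1.48. The dendritic cell markers summed to at most 3.57 CPM in the 18 libraries of this experiment.

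**Figure D4:**
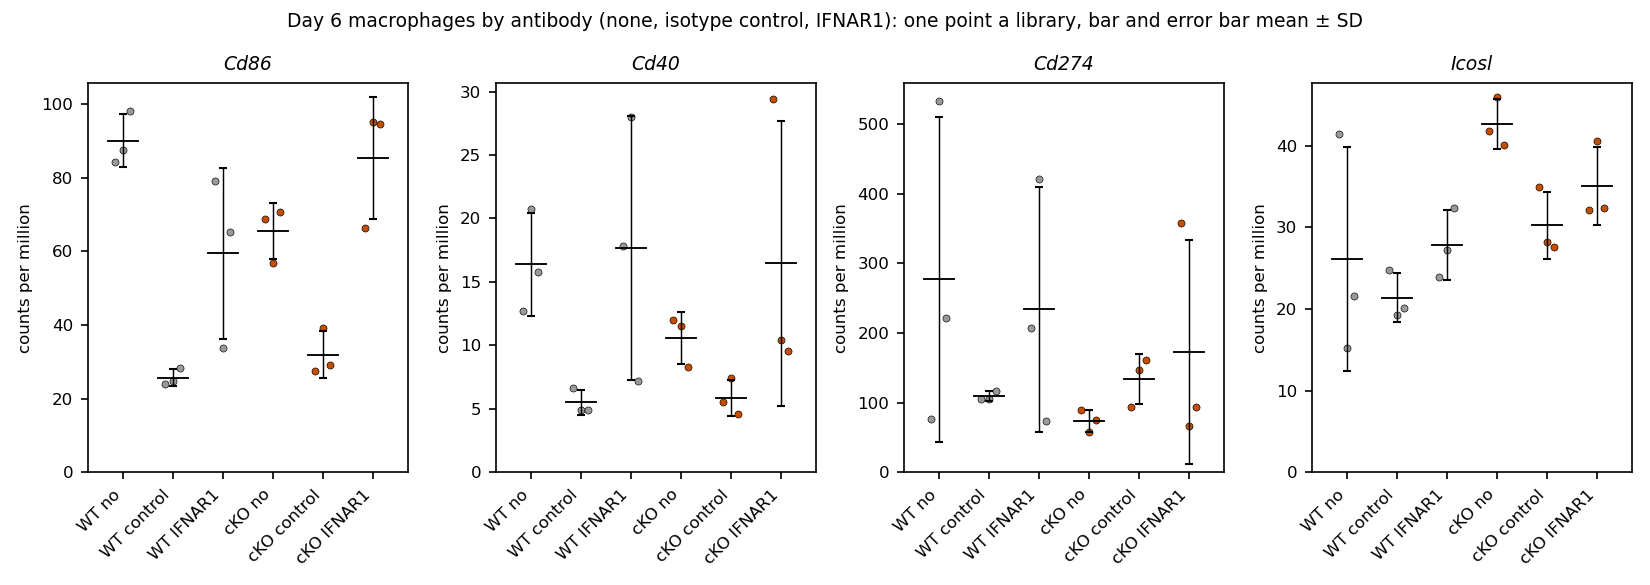
CPM of Cd86, Cd40, Cd274 and Icosl in the 6 arms of the antibody experiment, 1 point a library, with bars for the mean ± SD of 3. For Cd86 and Cd40 the control antibody libraries of both genotypes sit below those with no antibody and those with IFNAR1 antibody.

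The 3 sets of WT and cKO BMDMs of the double KO experiment had the highest background of calls between these genotypes, and all 9 called values of cKO against WT lay in them. Set 1 called 3 of 7 tested members (background 34.6%), set 2 called 4 (21.9%) and set 3 called 2 (35.9%). Read against that background, 3 of 7 and 2 of 7 are near the share of all genes, and 4 of 7 is above it.

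Icosl, the gene of the ICOS ligand, rose in each set. Its levels were 50.99, 50.7 and 51.9 CPM in cKO and 31.5, 24.05 and 26.6 in WT in set 1 (0.91 ± 0.11, adjusted p = 8.09e-07). In set 2 they were 46.1, 43.7 and 41.3 and 17.6, 18.02 and 16.9 (1.32 ± 0.11, adjusted p = 3.96e-09), and in set 3 44.7, 43.6 and 44.6 and 29.95, 22.6 and 21.6 (0.84 ± 0.11, adjusted p = 2.17e-06). In no set did a cKO library overlap a WT library, and the WT libraries were the more spread in sets 1 and 3.

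Cd86 rose in set 1, at 22.8, 17.1 and 15.6 against 13.2, 6.10 and 5.32 CPM (1.18 ± 0.30, adjusted p = 0.00354), and in set 3, at 19.2, 15.6 and 15.8 against 14.96, 5.65 and 5.56 (0.92 ± 0.29, adjusted p = 0.0173). In set 2 it was at 10.1, 11.3 and 9.20 against 5.23, 6.42 and 6.96 (0.72 ± 0.30, adjusted p = 0.0931). In both sets 1 and 3, WT replicate 1 stood apart from the other WT libraries, toward the cKO values. The set 3 call was lost under 4 of 11 alternatives.

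The remaining calls fell in single sets. Cd40 fell in set 2, at 9.80, 10.7 and 9.41 against 15.9, 14.7 and 15.2 CPM (-0.62 ± 0.12, adjusted p = 0.000351). In sets 1 and 3 its log2 fold changes were -0.27 and -0.28 and did not pass. Cd80 rose in set 2, at 8.18, 8.54 and 7.60 against 5.89, 5.06 and 5.47 (0.57 ± 0.18, adjusted p = 0.0226), a call lost without any 1 of 4 libraries, and its log2 fold changes were -0.20 and -0.13 in the other sets. Cd47 rose in set 1, at 403, 398 and 403 against 365, 301 and 299 (0.32 ± 0.09, adjusted p = 0.00628). Sirpa fell in set 2, at 2731, 2799 and 2528 against 3189, 3187 and 3064 (-0.23 ± 0.08, adjusted p = 0.0391), a call lost without any 1 of 5 libraries. Cd274 was not called in any set, with log2 fold changes of -0.09, -0.27 and -0.24.

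The TNF family ligands stood above the background in the same sets. Of 5 tested, 4 rose in set 1, 5 in set 2 and 4 in set 3, with none falling, and Tnfsf8 led at 3.32, 5.12 and 3.11. No antigen presentation gene was called in sets 1 and 3, and 1 of 7 rose in set 2. Dendritic cell markers were higher in cKO, with 6 of 8 rising in set 1, 5 in set 2 and 6 in set 3, and 1 falling in sets 1 and 3. Their sums were 17.46 to 22.6 against 5.25 to 8.88 CPM in set 1, 7.87 to 8.31 against 1.82 to 3.43 in set 2, and 16.8 to 27.2 against 7.73 to 8.11 in set 3, with no marker at 0. The neutrophil and progenitor markers summed to 187 to 261 against 48.3 to 84.8 CPM in set 1, and to 184 to 298 against 57.5 to 92.8 in set 3. The stromal markers summed to 23.1 to 33.03 against 10.7 to 15.3 CPM in set 3, with 1 of 5 called, and overlapped between genotypes in sets 1 and 2. The part of these cells in the Icosl and Cd86 results was not tested.

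Each double KO was compared with the mean of the 3 cKO sets. The labels do not say which set belongs to which double KO, so set and allele cannot be told apart. In the order of the samples, the Sting, Mavs and Irf7 double KOs follow sets 1, 2 and 3. Against set 2 alone the Mavs calls below were lost, and against set 3 alone the Irf7 call. Libraries of set 3 and the Irf7 double KO list 54146 genes, and those of the other sets and double KOs list 55536. The Sting double KO called no member (background 36.4%), with 0 at an unadjusted p under 0.05 by edgeR and 0 called by DESeq2. Of all 18083 genes, 8061 had such a p. Icosl stood at 46.1, 45.2 and 43.6 CPM and Cd86 at 13.02, 20.7 and 17.2, inside the ranges of the cKO sets. The log2 fold changes against the cKO sets were -0.04 ± 0.09, adjusted p = 0.748 for Icosl and 0.20 ± 0.23, adjusted p = 0.526 for Cd86.

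The Mavs double KO called 2 members (background 9.32%). Cd40 was lower, at 8.26, 9.15 and 8.90 CPM (-0.38 ± 0.10, adjusted p = 0.0168), below every cKO library of the sets, but the call was lost against set 2 alone (-0.18, adjusted p = 1) and without Mavs double KO replicate 1 or 3. Sirpa was higher, at 2943, 2741 and 2919 CPM (0.32 ± 0.06, adjusted p = 0.00145), but overlapped the 2731, 2799 and 2528 CPM of cKO set 2, against which alone the call was lost. Sirpa lies 1.60 Mb from Mavs on chromosome 2, and by the study's methods the Mavs allele came from another strain and was backcrossed. WT set 2, which does not carry the Mavs allele, held Sirpa at 3189, 3187 and 3064 CPM. Whether sequence linked to that allele differs here was not tested. In the same comparison 4 of 7 genes of the CD47-SIRPα pathway rose, 3 of 7 antigen presentation genes fell (log2 fold changes of -1.32 for H2-Eb1, -1.23 for H2-Aa and -1.18 for H2-Ab1), and 6 of 8 dendritic cell markers fell, their sum being 5.32 to 6.79 CPM. All 5 stromal markers were higher, at 81.2 to 289 CPM in sum. Their part in the result was not tested.

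The Irf7 double KO called 1 member (background 10.6%). Cd40 was higher, at 16.4, 13.6 and 13.4 CPM (0.34 ± 0.10, adjusted p = 0.0219), with libraries that overlapped those of the cKO sets, a call lost against set 1 or set 3 alone and without Irf7 double KO replicate 1. Cd274 stood at 40.2, 18.2 and 16.5 (0.65 ± 0.25, adjusted p = 0.105), replicate 1 being the high library, and Icosl at 32.6, 41.1 and 43.1 (-0.25 ± 0.09, adjusted p = 0.0752). Of 11 interferon signalling genes 4 fell in this comparison and none rose.

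Icosl was called in each double KO against the 3 WT sets. The Sting double KO called 4 members (background 40.2%), the Mavs double KO 5 (43.2%) and the Irf7 double KO 3 (31.9%). Icosl was higher by 0.98 ± 0.09, adjusted p = 2.19e-09 in the Sting, by 0.95 ± 0.08, adjusted p = 3.09e-09 in the Mavs and by 0.77 ± 0.09, adjusted p = 2.34e-07 in the Irf7 double KO, on the log2 scale. Every double KO library exceeded every WT library. Cd86 was higher in the Sting (1.14 ± 0.23, adjusted p = 0.000317) and Irf7 (0.86 ± 0.23, adjusted p = 0.00654) double KOs, and gave 0.43 ± 0.24, adjusted p = 0.153 in the Mavs double KO. Cd47 was higher in the Sting (0.24 ± 0.07, adjusted p = 0.00808) and Mavs (0.28 ± 0.07, adjusted p = 0.00205) double KOs, and both calls were lost against WT set 2 alone. The Cd86 call in the Irf7 double KO was lost against WT set 1 or set 3 alone. All 5 stromal markers were called higher in the Sting and Mavs double KOs, at 163 to 200.4 CPM in sum in the Sting, and none in the Irf7 double KO. Their part in the results was not tested.

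Cd40 was lower than in the WT sets in the Sting (-0.28 ± 0.10, adjusted p = 0.0275) and Mavs (-0.77 ± 0.10, adjusted p = 1.37e-06) double KOs, and the Sting call was lost without any 1 of the Sting libraries. Cd274, at 10.4, 11.7 and 11.9 CPM in the Mavs double KO, was lower there (-0.69 ± 0.28, adjusted p = 0.0492), a call that most alternatives lost. Sirpa was higher in the Mavs (0.29 ± 0.06, adjusted p = 0.000535) and lower in the Irf7 double KO (-0.20 ± 0.07, adjusted p = 0.0192), and turned direction with the set taken as reference, to −0.13 in the Mavs against WT set 2 alone and to 0.10 in the Irf7 against WT set 3 alone. The 3 comparisons share the same WT libraries, and likewise the 3 with cKO share the cKO libraries.

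**Figure D5:**
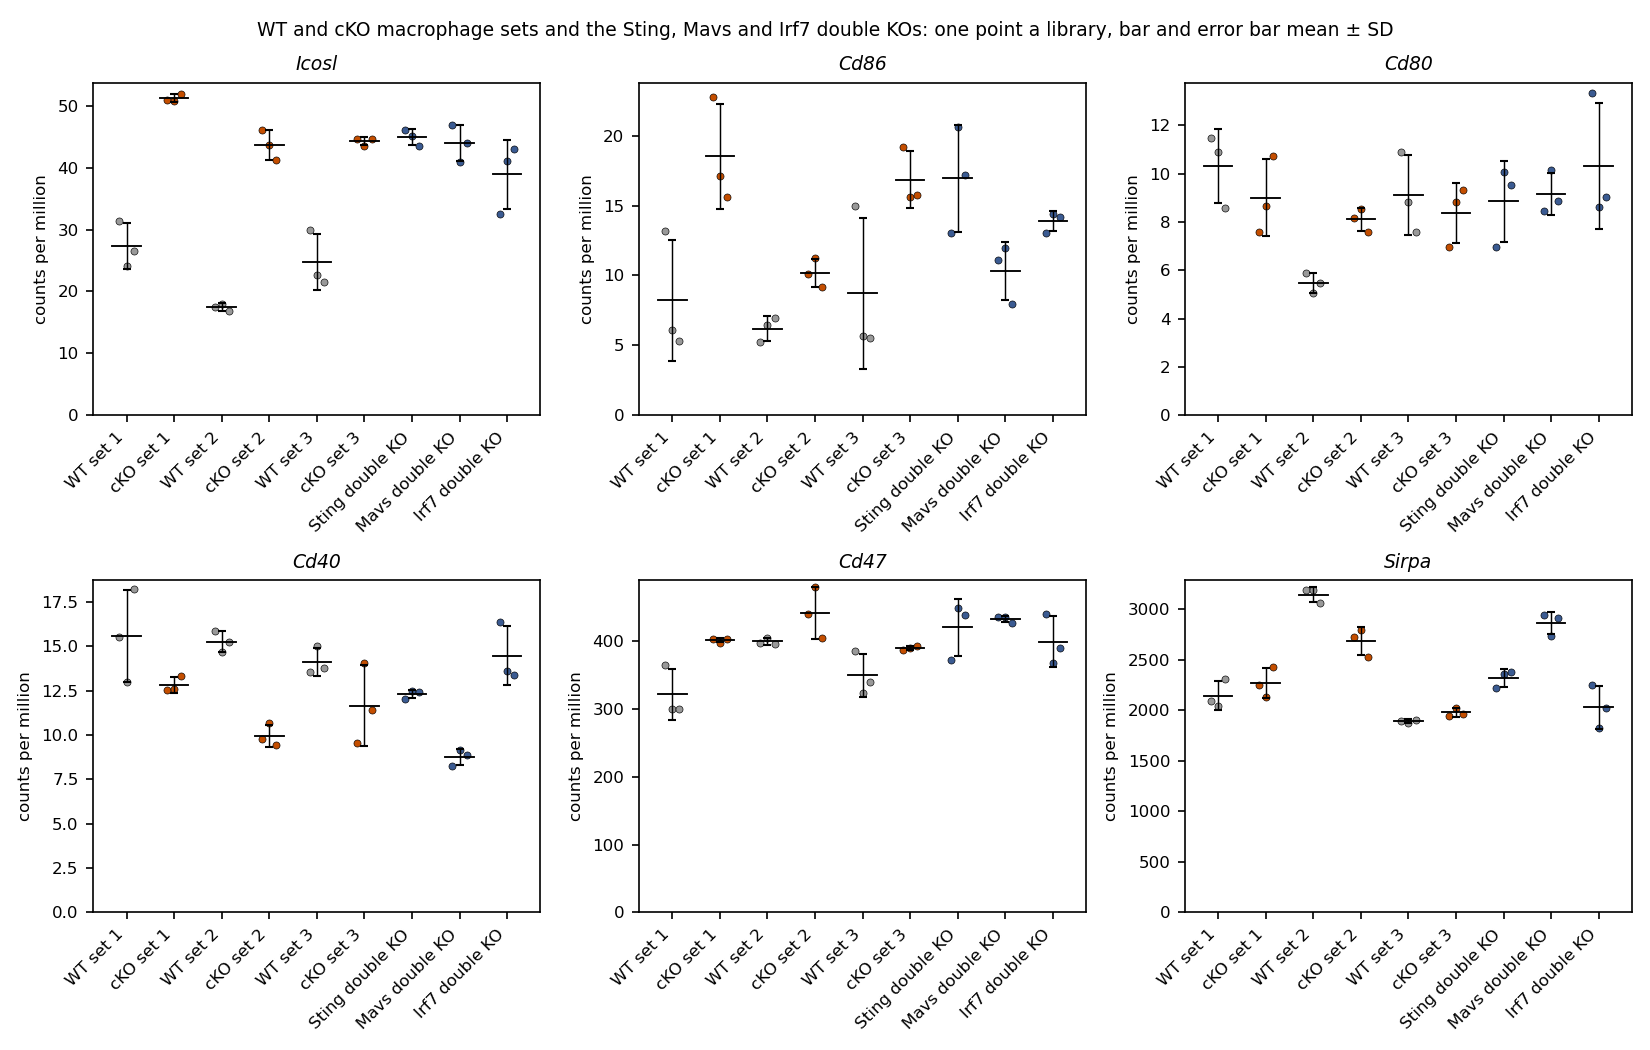
CPM of 6 members in the 3 sets of WT and cKO BMDMs and in the Sting, Mavs and Irf7 double KOs, 1 point a library, with bars for the mean ± SD of 3. Icosl is above every WT library in all cKO and double KO libraries, and Cd40 is lowest in the Mavs double KO.

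Across the 12 comparisons of cKO with WT, Icosl was the member whose direction was the same in all, with log2 fold changes from 0.22 to 1.32 (median 0.59). Its cKO libraries were all above its WT libraries in 8 of the 12, a count chosen for display after its values were seen. Of 11170 genes measured in every experiment, 438 were above in at least 8 comparisons (3.92%). For the counts of the other members, given next, no such share over all genes was worked out. Cd86 had a positive log2 fold change in 11, was above in 6 and below in 1, Cd274 was above in 4 and below in 1, and Cd40 above in 3 and below in 2. Cd80 was above in 1, and Cd47 in 3, and neither was below in any. Sirpa was above in 2 and below in 3. Pdcd1lg2, under the filter in most, was above in none and below in 3.

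The genes whose group means were most like each member were listed over the 27 groups and 11170 genes, after subtracting each experiment's mean. This likeness is a description, since the groups share libraries and 2 groups with IFNγ weigh heavily. For Cd274 the 3 highest were Psma5 (r = 0.95), Ric1 (0.94) and Psmd10 (0.93), and for Cd86 Socs1 (0.96), Arid5a (0.95) and Fgl2 (0.95). For Cd40 they were Tlk2 (0.96), March5 (0.96) and St6galnac4 (0.95), and for Cd47 Samhd1 (0.96), Batf2 (0.96) and Tor1aip2 (0.95). Icosl was closest to Tnfsf8 (0.91), the TNF family ligand that led the sets above, with Fcho1 at 0.87. Sirpa was closest to Amigo1 (0.94), B4galt6 (0.90) and Selenon (0.88), and Cd80 to Tmem216 (0.82), Adat2 (0.81) and Ints13 (0.80). Among the members themselves the highest value was 0.92, between Cd274 and Cd40, and the lowest −0.81, between Cd274 and Sirpa.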

How the data were processed

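Per the methods, BMDM RNA was depleted of rRNA and peritoneal libraries were made with the SMART-Seq v4 kit. By the same source the authors trimmed reads with Cutadapt and aligned them with STAR to mm10, which is GRCm38. The deposited files hold raw read counts per gene as STAR wrote them, without normalization, and the counts that ignore strand were used. Lines that name no gene (unmapped, multimapping, outside genes or ambiguous reads, with medians of 8.31%, 8.84%, 13.9% and 4.85% of a library's reads) were left out. Gene names and positions came from GENCODE vM21 and promoters from RefSeq.

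Each of 5 experiments was fitted as 1 model over its groups with edgeR 4.0.16 (quasi-likelihood test, TMM scaling, filterByExpr with a smallest count of 10 and a total of 15), and p-values were adjusted by Benjamini-Hochberg over all genes tested. CPM were scaled by TMM, and the SE of a fold change comes from its F statistic. A double KO was compared with the mean of the 3 sets. On data simulated from the real means, 128 to 167 of 200 changed genes were recovered, with 5 to 15 false calls. No library repeated another: the closest of 77 pairs within groups differed by 3.33 times the sampling noise. Replicate numbers were taken to pair libraries where every pair's deviations from the group means correlated above 0.1, which held in 10 of 20 comparisons, with a lowest value of 0.106 on day 3. Alternatives were another scaling, DESeq2 1.42.0, no filter, only the groups compared, a replicate block, each reference set alone, and leaving out each library. The pairing of libraries by number was inferred from the data and was not stated by the labels.

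All 8 members could be named in each comparison, and the text names those called or apart between groups and gives most others by range. Other genes came from lists by role and were named by size of change, at most 4 called genes per list and comparison. The members and lists were chosen with earlier results of these data known. Labels of 2 libraries disagree on IFNγ, and these were left out of the tests. The values of 2 other genes are not reported here.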

Additional observations from a re-analysis of the deposited data

Results flagged for a closer look

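In 4 members the libraries of cKO lay wholly above those of WT in one experiment and wholly below in another. This difference between experiments was not tested, and how many of all genes did the same was not counted. For Cd274 the log2 fold change of cKO over WT on day 5 exceeded that in set 2 by 1.52. For Cd86 the day 5 value exceeded that of the arm without antibody by 1.77, and for Cd40 the day 3 value exceeded that of the same arm by 1.57. For Sirpa the peritoneal value exceeded that of day 7 by 0.57. None of these values passed the test in its own comparison.

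The 2 libraries from cKO day 8 cells whose labels disagree on IFNγ entered no comparison. Above the range of untreated WT day 8 libraries lay 13 of their 16 member values. The share of all genes above that range was not counted, and Pdcd1lg2 enters with 2 and 8 counts against a range of 0. The first, with 9.67 M counts, held 34.9 CPM of Cd274, 0.207 of Pdcd1lg2, 10.9 of Cd80, 13.6 of Cd86, 11.4 of Cd40, 40.3 of Icosl and 345 of Cd47. The second, with 10.5 M counts (M, 1e+06), held 993 CPM of Cd274, 0.762 of Pdcd1lg2, 235 of Cd86, 371 of Cd40, 29.1 of Icosl and 990.4 of Cd47. The remaining values were 2022 CPM of Sirpa in the first library, and 6.76 of Cd80 and 993 of Sirpa in the second. These CPM are on gene counts without TMM scaling, unlike the WT range, and no group is assigned from them.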

How the results depend on the processing

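Depth limits Pdcd1lg2 in every experiment and the day 8 cKO comparisons, which have 2 libraries a group. The 45 called member values were recomputed under 625 alternatives, of which 533 kept direction and call, 90 lost the call and 2 reversed. They include Pdcd1lg2 with IFNγ in WT, which passed the filter through that group alone. The 163 uncalled values gave 2100, of which 81 passed the test and 2 reversed. Calls lost under none of the alternatives run were as follows, Pdcd1lg2 being left aside. With IFNγ they were Cd274, Cd86, Cd40, Cd47 and Sirpa in WT and Cd274, Cd86 and Cd40 in cKO. In the antibody experiment they were Cd86 for IFNAR1 against control antibody in cKO and for control against no antibody in WT. Among the sets they were Icosl in all 3, Cd86 and Cd47 in set 1 and Cd40 in set 2. Against the WT sets they were Icosl in each double KO, Cd86 in the Sting and Cd40 in the Mavs double KO. The cause of a changed call was not tested.

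Counts of called members moved as follows. The number of all genes called under each setting is not given beside them, so they are no result about the members alone. Fitting only the groups compared gave 3 on day 3, 0 for day 7 against day 3 in WT, 2 for untreated day 8, 3 for IFNγ in cKO, 1 with control antibody, 0 for IFNAR1 against control antibody in WT, 4 for control against no antibody in cKO, 1 in set 3, and 4 and 3 for the Mavs and Irf7 double KOs against cKO. DESeq2 gave 1 on day 3 and 1 on day 5, 2 each for day 7 against day 3 in cKO, untreated day 8, peritoneal macrophages, IFNAR1 against control antibody in cKO and the Irf7 double KO against cKO, and 5 for the Irf7 double KO against WT. Without the filter on low counts there were 2 for day 7 against day 3 in cKO, 2 for untreated day 8 and 2 in peritoneal macrophages. It also gave 6 for the Irf7 double KO against WT, which had 5 with RLE scaling. For cKO against WT with IFNγ it gave 1, Pdcd1lg2, of which no test is given. With set 2 alone as reference there were 1, 0 and 3 for the Sting, Mavs and Irf7 double KOs against cKO, and 3 and 5 for the Mavs and Irf7 double KOs against WT. With set 3 alone there were 1 and 0 for the Sting and Irf7 double KOs against cKO and 1 for the Irf7 double KO against WT. Sirpa reversed with the reference set, to −0.21 (Sting against cKO set 2), 0.29 (Sting against WT set 3), −0.13 (Mavs against WT set 2) and 0.10 (Irf7 against WT set 3).

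With the replicate block 3 members were called on day 3 and 2 for day 7 against day 3 in cKO. In these comparisons every pair correlated above 0.1, on day 3 with a lowest value of 0.106. The numbers were not shown to pair libraries for IFNAR1 against control antibody in cKO, where the block gave 2. In the other paired comparisons the block changed no count of members by more than 1.5 times. After the data were seen, the 2 cKO libraries with IFNγ were also paired crosswise with the untreated ones, which gave 4 called members and 3921 genes, against 5 and 4435 without a block.

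Leaving out 1 library at a time gave 0 to 1 called members on day 3 (1 without cKO replicate 2), 1 to 3 for day 7 against day 3 in WT (1 without day 3 replicate 3) and 0 to 2 in cKO, 0 to 2 for cKO against WT with IFNγ, 4 to 6 for IFNγ in cKO and 0 to 3 for the change of its effect. The antibody experiment gave 0 to 2 without antibody, 1 to 2 for IFNAR1 against control antibody in both WT and cKO, 1 to 2 for control against no antibody in WT, and 0 in cKO whichever library was left out. All genes called moved too. They ranged from 8 to 500 for control against no antibody in cKO (359 with all libraries). For IFNAR1 against control antibody in WT they ranged from 325 to 6769 (1928 with all libraries). These counts of members are thus no result about the members alone. Sets 1, 2 and 3 gave 3 to 4, 2 to 3 and 1 to 3. The double KOs gave 1 to 2 for Mavs against cKO, and 2 to 4, 4 to 5 and 2 to 6 for Sting, Mavs and Irf7 against WT, the 6 without replicate 1 of WT set 1 or of WT set 3. IFNγ in WT gave 6 throughout. That count holds Pdcd1lg2, which passed the filter through the IFNγ group alone, so its call is no result. A group left with 1 library was taken to vary like the others.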

Other observations

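Cd28, the receptor of CD80 and CD86 that is best known from T cells, was itself measured in the BMDMs. Of the 5 partner receptors it was the single one to pass the filter on low counts in the experiments with BMDMs, with a group mean of 132 CPM in untreated WT day 8 cells, while the 5 T cell markers summed to at most 12.1 CPM in any marrow library. Cd28 fell with IFNγ to 35.4 CPM in WT (log2 fold change −1.89 ± 0.36, adjusted p = 0.00235 by edgeR) and to 33.2 CPM in cKO (−2.13 ± 0.45, adjusted p = 0.00515). In WT cells of the antibody experiment it went from 159 CPM without antibody to 46.3 with control antibody (−1.78) and 123 with IFNAR1 antibody (1.41 over control), lowest with control antibody as Cd86 and Cd40 were, with the control antibody libraries shared by both comparisons. With control antibody it was higher in cKO, at 143 CPM (1.63 ± 0.29, adjusted p = 0.00352).

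The TNF family ligand Tnfsf8 was called in cKO over WT beyond the day 3 and set comparisons, with log2 fold changes of 2.12 on day 5, 2.49 on day 7 and 1.74 with control antibody. Tnfsf14 was called on day 5 (1.28) and day 7 (1.33). Tnfsf15 rose with IFNγ by 4.01 in WT and 4.89 in cKO on the log2 scale, and Tnfsf9 fell by 1.24 and 1.69. Lgals9 was called in cKO over WT on day 5 (1.47), without antibody (0.80) and with control antibody (0.82).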
